A study of Mus musculus with 2 samples.

Results

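Inflammatory monocytes of the colitic colon were taken as the barcodes that carried transcripts of Lyz2, the lysozyme of myeloid cells, and of a set of monocyte genes, with few or none of the genes of macrophages, neutrophils, dendritic cells, T cells, B cells and plasma cells. A barcode was kept with at least 1000 unique molecular identifiers (UMIs), at least 500 genes and less than 5% mitochondrial UMIs. A kept cell counted as an inflammatory monocyte with at least 5 UMIs of Lyz2, at least 3 UMIs in sum of Chil3, Thbs1, F13a1, F10 and Tgfbi, at most 2 UMIs in sum of the complement genes C1qa, C1qb and C1qc, and less than 5% of its UMIs from the calgranulins S100a8 and S100a9. It also had to hold 0 UMIs of Flt3 and of Cd3e, at most 1 UMI of Cd79a, and less than 1% of its UMIs from Jchain. The rule found 871 inflammatory monocytes among 13923 kept cells, 673 of 6005 in the WT library and 198 of 7918 in the Ring1aKO library.

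The cells were CD45+ 7AAD− leukocytes sorted from the colonic lamina propria (LP) of C57BL/6 mice, aged 8 to 10 weeks by the labels, that had all been given dextran sulfate sodium (DSS), a polysaccharide that damages the colonic epithelium. WT mice were compared with Ring1aKO mice, which lacked Ring1a (gene symbol Ring1), a subunit of polycomb repressive complex 1, in the whole body and not in monocytes alone. The study's methods name the J substrain. Each genotype was 1 library of 3′ single-cell RNA sequencing made from pooled mice. With 1 library per genotype no test was possible, and genotype, pool of mice and library cannot be told apart. Mice without DSS were not analysed here.

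Inflammatory, or Ly6C-high, monocytes leave the bone marrow through the chemokine receptor CCR2 and enter inflamed tissue. In the healthy colon their descendants acquire MHC class II, lose Ly6C and become resident macrophages that carry C1q, whereas in colitis monocytes that make cytokines and chemokines accumulate. Interferon-gamma from T cells, NK cells and innate lymphoid cells acts on them through transcription factors, IRF1 among them, that switch on genes such as Cxcl9, the guanylate-binding proteins (Gbp genes) and Ciita, the transactivator of MHC class II.

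Ring1 (chromosome 17, 34020792 to 34024680, GRCm38) checks the labels and was examined first. Over the monocytes it had 70 and 16 UMIs in WT and Ring1aKO, in this order as in all pairs of values that follow. Per 1000000 UMIs of the class (CPM) this was 11.1 CPM (8.68 to 14.1) in WT and 10.5 CPM (6.02 to 17.1) in Ring1aKO, with exact 95% Poisson intervals in brackets. The log2 ratio of Ring1aKO over WT was -0.01 (-0.97 to 0.72), so Ring1 transcript was not seen to be lower in the cells labelled Ring1aKO. A count near the 3′ end of a transcript does not show where a knockout allele is disrupted. WT and Ring1aKO therefore mean the libraries so labelled. In ratios 1 UMI was added to each sum, and every interval covers counting error only, not the spread between mice or libraries. Intervals of CPM levels and of their ratios take UMIs as independent, so they leave out the spread between cells too.

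The monocytes held 6284234 UMIs in WT and 1520150 UMIs in Ring1aKO. A WT monocyte had a median of 9712 UMIs and 2513 genes, and a Ring1aKO monocyte 7456 UMIs and 2009 genes. The median mitochondrial shares were 1.83% and 2.08%. The libraries shared 11 kept barcodes, of which 0 were monocytes. A UMI of another lineage (Cd79a, Cd79b, Ms4a1, Cd3d, Cd3g, Trac, Ncr1, Cpa3 or Siglech) was found in 93 of 673 monocytes (13.8%) in WT and in 45 of 198 (22.7%) in Ring1aKO.

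The cells were selected on measured UMIs of the rule genes, whose values are a description. The median monocyte had 75 UMIs of Lyz2 in WT and 41 in Ring1aKO. The 5 monocyte genes summed to a median of 71 and 97.5 UMIs, and the C1q genes were at 0 in 606 of 673 and 165 of 198 monocytes. Few cells lay at the limit of the monocyte genes. In WT 7 monocytes had 3 or 4 UMIs of them and 9 cells just outside had 1 or 2 UMIs, and in Ring1aKO the numbers were 3 and 3. The C1q limit passed among 67 and 33 monocytes with 1 or 2 UMIs, and 16 and 6 cells with 3 or 4 UMIs just outside. The Lyz2 limit passed among 49 and 33 monocytes with 5 to 9 UMIs, and 83 and 34 cells with 1 to 4 UMIs just outside.

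Genes that the rule did not use were read to check the name. Beside the rule genes, the genes highest in the monocytes over all other kept cells were Vcan, Saa3, Fn1, Ccl9, Hp, Emilin2, Ccl6, Igsf6, Ms4a6d and Gda. Vcan, which encodes the proteoglycan versican and is abundant in classical monocytes, was at 379.5 CPM against 27.4 CPM in other WT cells, and at 372 CPM against 7.97 CPM in other Ring1aKO cells. Ly6g, a marker of neutrophils, had 0 UMIs in the monocytes of both libraries. Zbtb46, a transcription factor of conventional dendritic cells, was at 0.637 and 2.63 CPM, and Cd163, a scavenger receptor of resident macrophages, had 1 UMI in each library.

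Ly6c2 (chromosome 15, 75108158 to 75111970), the gene of the antigen for which Ly6C-high monocytes are named, was at 1162 CPM (1136 to 1189) in WT and 274 CPM (249 to 302) in Ring1aKO. The log2 ratio was -2.08 (-2.23 to -1.94). With each cell thinned to 2000 UMIs, which left out 8 and 5 shallower cells, Ly6c2 reached 69.5% (65.8 to 73.0) and 25.9% (19.9 to 32.7) of monocytes (Clopper-Pearson intervals), as against 89.3% and 50.5% before thinning. The background was 7.11% and 3.16% of B cells thinned alike, whose median depths were 4536 and 4480 UMIs, and cell-free barcodes held Ly6c2 at 770.5 and 500.3 CPM. By Ly6c2 the name thus fits the WT cells better than the Ring1aKO cells, most of which had no Ly6c2 UMI at this depth. Reads of Ly6c2 can also be shared with its near copy Ly6c1.

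Inflammatory monocytes made up 11.2% (10.4 to 12.0) of the kept cells in WT and 2.50% (2.17 to 2.87) in Ring1aKO. The log2 ratio of these shares was -2.16 (-2.39 to -1.94). Shares sum to a whole, and B cells, taken as cells with at least 5 UMIs of Cd79a, made up 17.6% and 44.9%. Without cells over the limits of Cd79a or Jchain, the monocyte share was 16.9% (15.7 to 18.1) of 3987 cells and 6.00% (5.22 to 6.87) of 3299 cells, a log2 ratio of -1.49 (-1.71 to -1.27). On that denominator macrophages, with at least 10 UMIs of C1q genes, stood at -0.20 (-0.47 to 0.08). Neutrophils, with at least 5% calgranulins, stood at 0.52 (0.22 to 0.81), and dendritic cells, with a UMI of Flt3 and at least 20 UMIs of MHC class II genes, at 0.01 (-0.27 to 0.29). On that denominator the monocyte share was thus the only one of these with an interval wholly below 0. Differences between the classes were not tested over mice.

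Of 5761 genes with at least 100 UMIs over the monocytes of both libraries, 79 (1.37%) were at least 2-fold higher in Ring1aKO and 374 (6.49%) at least 2-fold lower. The median log2 ratio of all 5761 genes was -0.17. Gene lists are read against these values below.

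**Figure D1:**
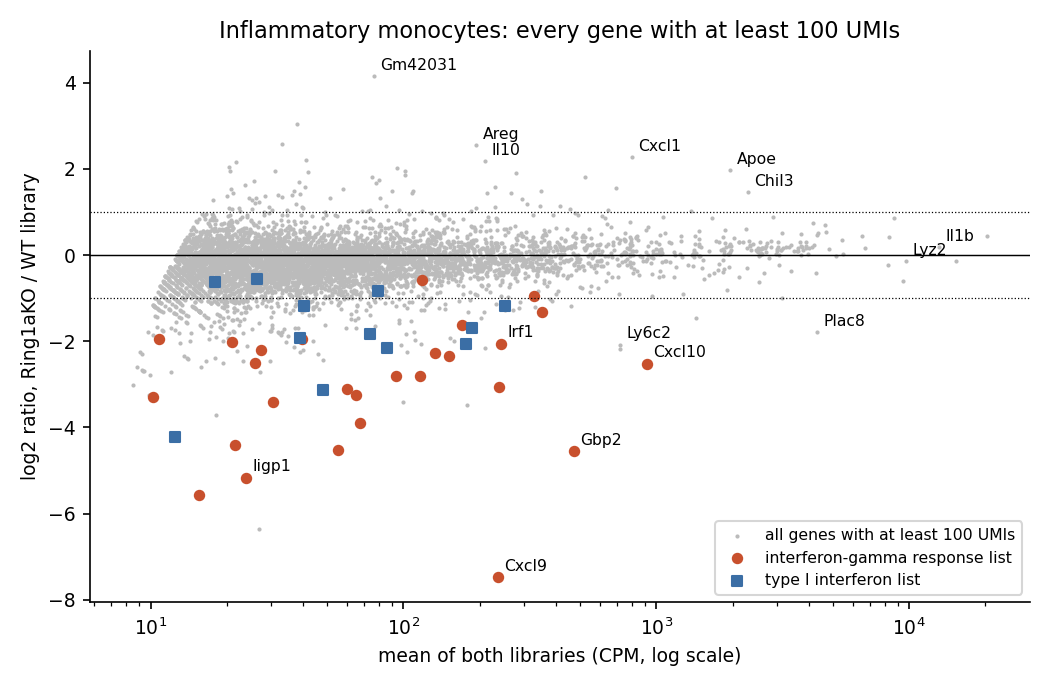
Each point is a gene with at least 100 UMIs in the monocytes, with its mean level in CPM (log axis) and its log2 ratio of Ring1aKO over WT; dotted lines mark 2-fold. The genes of the interferon-gamma response (orange) and of type I interferon (blue squares) all lie below 0, down to Cxcl9 at -7.48, and Gbp6, at 0 UMIs in Ring1aKO, is drawn with 1 UMI added.

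Genes of the interferon-gamma response were lower as a group in Ring1aKO monocytes. Of 30 genes of the list in the table, 27 had at least 100 UMIs, and 27 of 27 had a log2 ratio below 0. At least 2-fold lower were 25 genes, against 6.49% of all genes, and at least 2-fold higher were 0. The median of the list was -2.80, beside -0.17 over all genes, and its summed level was 6815 and 1293 CPM. The genes short of 2-fold were Cd274, which encodes PD-L1, at -0.95 and Fcgr4, an activating receptor for IgG, at -0.57.

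The promoters of 3 genes of the list are shown because the list was lower together; they are the genes with the largest ratios for which a RefSeq promoter could be shown. The 250 bases before the start of the gene in RefSeq are given 5′ to 3′ on the strand of the gene, on GRCm38.p6. Capitals mark a match, on either strand, to TTCNNNGAA, the core of the gamma-activated site, or to GAAA, any 2 bases and GAAA, the core that interferon regulatory factors bind.
Cxcl9, chr5:92328080-92328329, minus strand: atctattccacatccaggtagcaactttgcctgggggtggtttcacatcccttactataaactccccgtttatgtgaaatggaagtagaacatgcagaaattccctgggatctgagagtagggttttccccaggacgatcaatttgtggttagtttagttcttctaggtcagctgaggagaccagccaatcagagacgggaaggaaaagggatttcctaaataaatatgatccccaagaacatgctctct
Gbp2, chr3:142620413-142620662, plus strand: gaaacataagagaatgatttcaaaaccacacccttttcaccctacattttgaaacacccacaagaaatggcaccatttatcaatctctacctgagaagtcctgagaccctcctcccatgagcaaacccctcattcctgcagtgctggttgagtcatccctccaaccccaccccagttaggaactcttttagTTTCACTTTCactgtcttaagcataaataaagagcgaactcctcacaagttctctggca
Serpina3g, chr12:104235897-104236146, plus strand: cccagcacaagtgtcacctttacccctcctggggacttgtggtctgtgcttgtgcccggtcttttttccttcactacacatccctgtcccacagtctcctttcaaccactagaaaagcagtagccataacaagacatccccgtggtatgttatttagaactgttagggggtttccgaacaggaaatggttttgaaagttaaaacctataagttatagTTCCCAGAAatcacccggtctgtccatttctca

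Gbp2 holds the interferon regulatory factor core, read on the other strand, from base -59 to base -50 before its RefSeq start. Serpina3g holds TTCCCAGAA from base -33 to base -25. The GENCODE starts differ. That of Gbp2, at 142620602, lies within its window and before the core, and that of Serpina3g, at 104236245, lies past its window. Neither core is in this window of Cxcl9, which says only that these letters are not there. A promoter was at hand for 18 of the 27 genes. The gamma-activated site core was in 7 of the 18, and in 7.02% of 32851 promoters cut to the same length. The interferon regulatory factor core was in 10 of the 18, and in 2.98% of all promoters. Either was in 13 of the 18, and in 9.66% of all. The cores may overlap, and a match is a string of letters and not a shown binding site.

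Among the chemokines of the list, Cxcl9, which draws T cells that carry CXCR3, had 2952 and 3 UMIs in the monocytes. That was 469.7 CPM (453 to 487) in WT and 1.97 CPM (0.407 to 5.77) in Ring1aKO, a log2 ratio of -7.48 (-10.17 to -6.35). Its UMIs came from 177 of 673 and 2 of 198 monocytes. Cxcl10, another ligand of CXCR3, was at 1562 CPM (1532 to 1594) in WT and 272 CPM (246 to 299) in Ring1aKO, a log2 ratio of -2.52 (-2.67 to -2.38). Cxcl10 thus remained well measured in the library where Cxcl9 was near 0.

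Guanylate-binding proteins and immunity-related GTPases act on vacuoles that hold microbes. Gbp2 was at 904 CPM (880.5 to 928) in WT and 38.2 CPM (29.0 to 49.3) in Ring1aKO, a log2 ratio of -4.54 (-4.97 to -4.19). Gbp4 was at 106 and 3.95 CPM, a ratio of -4.52 that was -3.80 after thinning, and the GTPase gene Irgm1 at 127 and 7.89 CPM. Gbp6 had 196 and 0 UMIs and, with a floor of 3 counts over the monocytes of a library, was at least 15.8-fold lower in Ring1aKO. Iigp1 had 296 UMIs and 1 UMI, a log2 ratio of -5.17 (-11.47 to -3.67), or -2.80 after thinning. Gbp3, Gbp5, Gbp7, Gbp8, Gbp9, Irgm2, Igtp and Ifi47 had ratios between -3.42 and -1.95. After thinning Gbp9 stood at -2.62, Irgm2 at -2.86 and Igtp at -1.59, and Gbp8 stood at -4.42 without cells holding a UMI of another lineage. Gbp genes are close copies of each other, so reads of single members can be split between them.

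Transcriptional regulators of the response were lower too. Irf1 was at 393 CPM (378 to 409) in WT and 94.1 CPM (79.3 to 111) in Ring1aKO, a log2 ratio of -2.05 (-2.32 to -1.82). Nlrc5, the transactivator of MHC class I, stood at -2.01. Socs1, which inhibits signalling from the interferon-gamma receptor, was at 63.7 and 15.8 CPM. Serpina3g, a serine protease inhibitor, had 263 and 2 UMIs, a log2 ratio of -4.41 (-8.04 to -3.12), or -3.19 after thinning.

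The genes of antigen processing on the list also had ratios below -1. The peptide transporter gene Tap1 stood at -2.82 (-3.32 to -2.41), and the immunoproteasome genes Psmb9 and Psmb8 at -1.62 and -1.32. These genes lie 157 to 173 kb from Ring1 on chromosome 17 (GRCm38), so for them the genotype and neighbouring DNA carried along with a knockout allele cannot be told apart.

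Shares of cells followed the levels. Thinned to 2000 UMIs, Gbp2 reached 45.3% (41.4 to 49.1) and 6.22% (3.25 to 10.6) of monocytes, with 5.31% and 0.817% of B cells as background. Irf1 reached 38.3% (34.6 to 42.2) and 10.9% (6.86 to 16.2) of monocytes and 21.3% and 11.6% of B cells. Cxcl9 reached 18.6% (15.8 to 21.8) and 0.518% (0.0131 to 2.85) of monocytes and 1.33% and 0.113% of B cells. The Cxcl9 share in Ring1aKO monocytes was not distinguishable from background at this depth, and the Irf1 share there was at or below that of B cells. Unthinned monocyte shares were 63.4% and 16.7% for Gbp2, 68.4% and 32.8% for Irf1 and 26.3% and 1.01% for Cxcl9.

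Genes that type I interferon induces, many of which also respond to interferon-gamma, were lower as well. Of 17 genes of this list 12 had at least 100 UMIs, 12 of 12 were below 0 and 9 at least 2-fold lower, with a median of -1.77. Isg15, a ubiquitin-like modifier, was at 287 CPM (274 to 301) in WT and 67.8 CPM (55.3 to 82.2) in Ring1aKO, a log2 ratio of -2.07 (-2.38 to -1.80). The antiviral genes Rsad2 and Oasl2 stood at -2.17 and -3.14, with Rsad2 at -3.24 in cells with 0 UMIs of C1q and Oasl2 at -5.22 after thinning. Irf7, which amplifies type I interferon, stood at -1.84. Ifit2 had 153 UMIs and 1 UMI, a ratio of -4.22 (-10.52 to -2.71), or -3.61 after thinning. Xaf1, which counts among the 9, stood at -1.18. It stood at -0.61 after thinning and at -3.26 under another of the alternatives described below. Short of 2-fold were Ifit1 at -0.62 (at -1.26 without cells holding a UMI of another lineage), Oasl1 at -0.83 and Isg20 at -0.54.

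**Figure D2:**
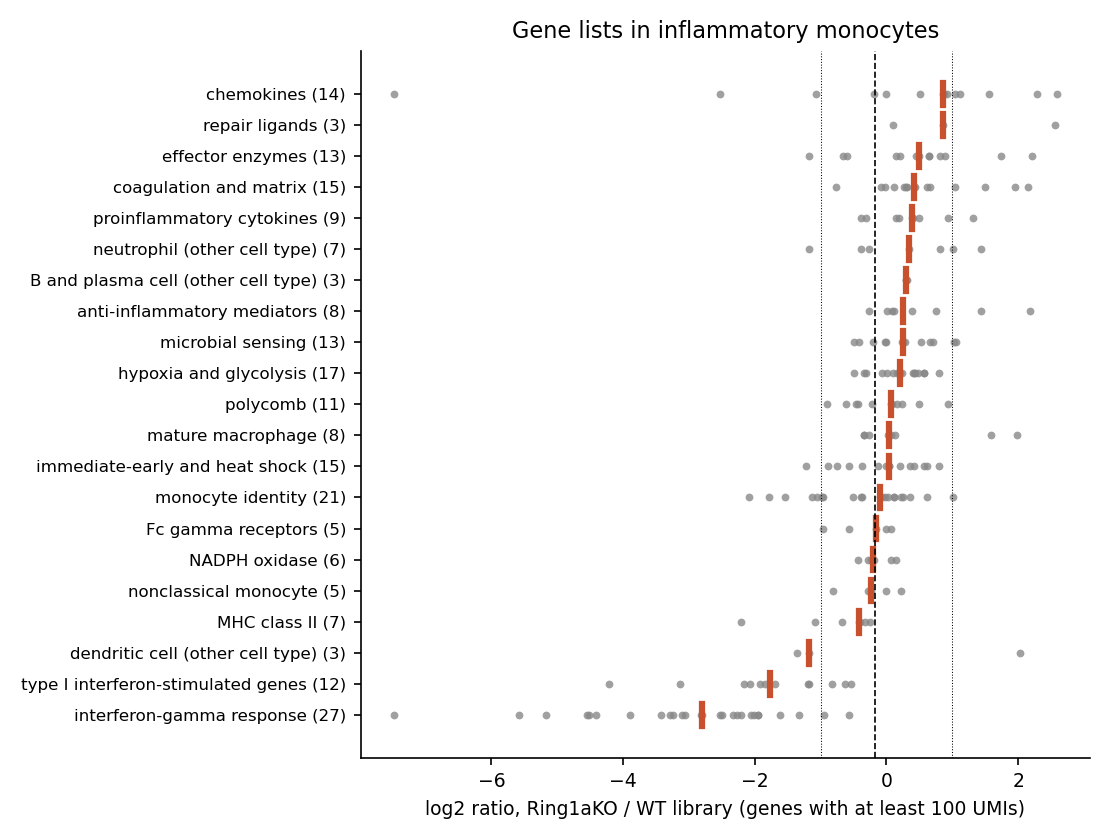
Each grey point is a gene of a list, with its log2 ratio of Ring1aKO over WT in the monocytes, and the orange bar is the median of the list. The dashed line is the median of all genes, -0.17; the interferon-gamma response list stands lowest, at -2.80, and chemokines highest, at 0.87.

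The list of monocyte identity lay near the median of all genes, at -0.10, but its members split. Of 21 genes 5 were at least 2-fold lower, among them Ly6c2, Cx3cr1, Plac8 and Ccr2, and 1 was at least 2-fold higher, Saa3. Ccr2, the receptor for CCL2, was at 523 CPM (505 to 541) in WT and 251 CPM (227 to 278) in Ring1aKO, a log2 ratio of -1.05 (-1.21 to -0.90) that was -0.91, short of 2-fold, in cells thinned to 2000 UMIs. Cx3cr1, the fractalkine receptor, stood at a ratio of -1.55. Plac8 was the most abundant of the list in WT and was at 6688 CPM (6625 to 6753) in WT and 1948 CPM (1878 to 2019) in Ring1aKO, a log2 ratio of -1.78 (-1.83 to -1.73).

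Other genes of monocytes were closer in the libraries. Csf1r, the receptor for macrophage colony-stimulating factor, stood at -0.10 (-0.23 to 0.02), the integrin gene Itgam at -0.07 (-0.20 to 0.06) and Vcan at -0.03 (-0.16 to 0.11). Spi1, the myeloid transcription factor PU.1, stood at 0.11 (-0.01 to 0.23). Fn1, the gene of fibronectin, was at 428 and 656 CPM, a ratio of 0.62. Of 5 genes of nonclassical monocytes 0 were 2-fold apart, and their median was -0.24.

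Saa3, an acute-phase protein of the serum amyloid A family, was at 903 CPM (879.6 to 927) in WT and 1827 CPM (1760.1 to 1897) in Ring1aKO, a log2 ratio of 1.02 (0.95 to 1.08). It was found in 178 of 673 and 94 of 198 monocytes. Of B cells, without thinning, 3.22% and 2.61% held a UMI of it as background. Chil3 (Ym1), a chitinase-like protein, was at 1217 CPM (1190.4 to 1245) in WT and 3373 CPM (3281 to 3466) in Ring1aKO. Chil3 is a gene of the rule, and its ratio of 1.47 is a description. Of the other rule genes Lyz2 was at 10199 and 9261 CPM, Thbs1 at 5500.1 and 7459 CPM and F10 at 720.2 and 676 CPM.

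**Figure D3:**
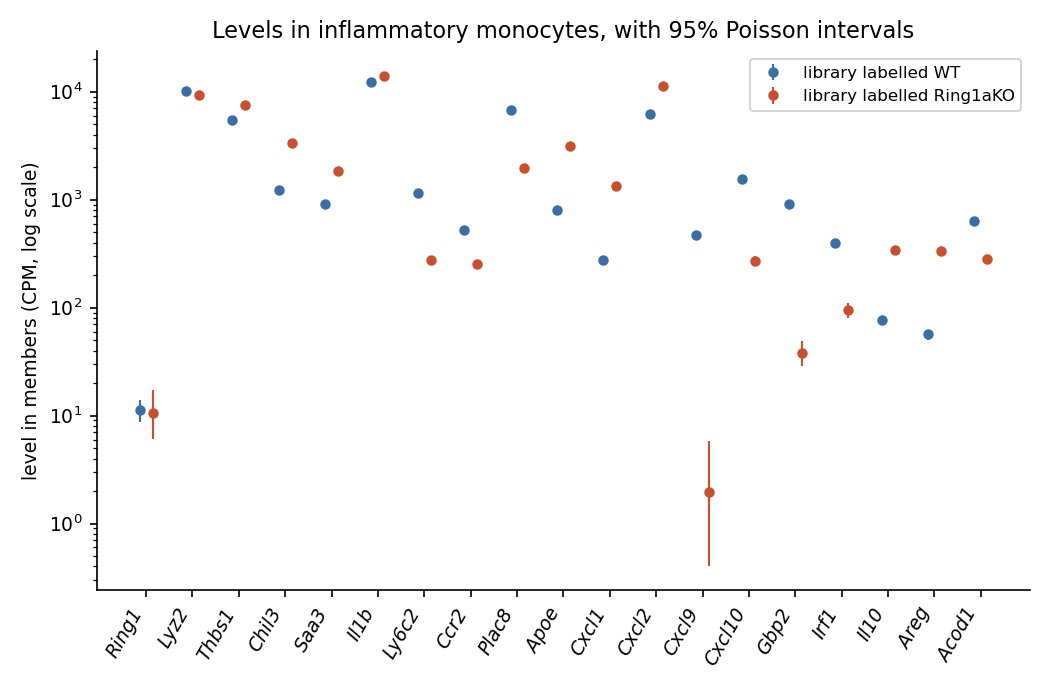
Levels in CPM (log axis) over the monocytes of each library, with exact 95% Poisson intervals. Ring1, Lyz2 and Il1b lie side by side, Ly6c2, Plac8, Cxcl9, Gbp2 and Irf1 are lower in Ring1aKO, and Apoe, Cxcl1, Il10 and Areg are higher.

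Of 20 chemokine genes 14 had at least 100 UMIs. Of these 5 were at least 2-fold higher in Ring1aKO, which were Ccl7, Cxcl1, Cxcl3, Ccl2 and Ccl9, and 3 at least 2-fold lower, which were Cxcl9, Cxcl10 and Ccl24. The median was 0.87, and Cxcl9 and Cxcl10 also belong to the interferon-gamma response list. Among the ligands of CXCR2, which attract neutrophils, Cxcl1 was at 273 CPM (260.5 to 286) in WT and 1326 CPM (1269 to 1385) in Ring1aKO, a log2 ratio of 2.28 (2.19 to 2.37). Cxcl3 was at 350.2 and 1029.5 CPM, a ratio of 1.56 (1.46 to 1.65). Cxcl2 was the most abundant chemokine, at 6156 and 11208 CPM, and its ratio of 0.86 (0.84 to 0.89) was short of 2-fold. After thinning, Cxcl1 reached 11.1% (8.84 to 13.8) and 43.5% (36.4 to 50.8) of monocytes, with 0.664% and 2.56% of B cells as background, and 15.6% and 48.5% of monocytes before thinning.

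Ccl2, a ligand of CCR2 that attracts monocytes, was at 145 CPM (136 to 155) in WT and 313 CPM (286 to 343) in Ring1aKO, a log2 ratio of 1.11 (0.94 to 1.27) that was short of 2-fold in cells thinned to 2000 UMIs, at 0.92. Ccl7, which binds the same receptor, had 59 and 86 UMIs, a ratio of 2.58 (2.10 to 3.09) that was 1.00, just short of 2-fold, after thinning. Ccl9, a ligand of CCR1, stood at 1.04 (0.95 to 1.14) and after thinning at 0.94. Ccl24, a ligand of CCR3, stood at -1.07 (-1.93 to -0.43). It stood at -0.44 without the 5% of cells with the most genes, and at -1.84 under another of the alternatives described below.

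Il1b was the most abundant cytokine and close in both libraries, at 12281 CPM (12194 to 12368) in WT and 13982 CPM (13794 to 14171) in Ring1aKO, a log2 ratio of 0.19 (0.17 to 0.21). It was found in 97.1% and 97.4% of thinned monocytes, with 19.5% and 10.9% of B cells as background. Il1a, the other gene of IL-1, was at 169 CPM (159 to 179.6) in WT and 419.7 CPM (388 to 454) in Ring1aKO, a ratio of 1.31 (1.17 to 1.45), and was the 1 gene of 9 proinflammatory cytokines that was at least 2-fold apart. Tnf stood at 0.14 (-0.05 to 0.31) and Il6 at 0.38 (0.12 to 0.63). Il12b, a subunit of IL-12, had 1 and 0 UMIs, so no fold is given.

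Among 8 anti-inflammatory mediators Il10 and Il1r2 were at least 2-fold higher and 0 at least 2-fold lower. Il10 was at 76.1 CPM (69.4 to 83.2) in WT and 343 CPM (315 to 374) in Ring1aKO, a log2 ratio of 2.17 (1.99 to 2.36). It was found in 81 of 673 and 62 of 198 monocytes, and after thinning in 6.47% and 20.7% of monocytes and 1.23% and 1.63% of B cells. Il1r2, the decoy receptor for IL-1, was at 143 and 387 CPM, a ratio of 1.44 (1.29 to 1.59). Il1rn, the receptor antagonist of IL-1, was close, at 1356 and 1473 CPM, and Nfkbia, the inhibitor of NF-kappaB, stood at 0.75.

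Of the repair ligands 3 had at least 100 UMIs. Areg, the gene of the epithelial growth factor amphiregulin, was at 56.3 CPM (50.6 to 62.5) in WT and 332 CPM (303 to 362) in Ring1aKO, a log2 ratio of 2.56 (2.36 to 2.76). Its UMIs came from 54 of 673 and 30 of 198 monocytes. Of B cells, without thinning, 3.70% and 2.70% held a UMI of it as background. After thinning its shares were 4.96% and 10.9% of monocytes and 2.46% and 1.30% of B cells. Vegfa was at 321 and 345 CPM and Hbegf at 12.6 and 22.4 CPM, both short of 2-fold, though Hbegf reached a ratio of 1.13 as a mean of CPM over cells. Among 15 genes of coagulation and matrix 4 were at least 2-fold higher, which were Pdpn, Serpinb2, Ecm1 and Timp1, and 0 at least 2-fold lower. Timp1, an inhibitor of matrix proteases, stood at 1.05, and at 0.69 as a mean of CPM over cells. Serpinb2, an inhibitor of plasminogen activators, was at 41.5 and 161 CPM. Its 261 and 245 UMIs came from 68 of 673 and 22 of 198 monocytes, and single cells held up to 100 and 68 of them. The level of Serpinb2 thus rests on few cells in each library.

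Effector enzymes went both ways, with 2 of 13 at least 2-fold higher and 1 at least 2-fold lower. Acod1, which makes itaconate, was at 639 CPM (619 to 659) in WT and 282 CPM (256 to 309.5) in Ring1aKO, a log2 ratio of -1.18 (-1.33 to -1.04). Lcn2, which binds bacterial siderophores, was at 36.8 and 123 CPM, a ratio of 1.74 (1.46 to 2.03). Nos2, the inducible nitric oxide synthase, stood at -0.65 (-1.24 to -0.17). Ptgs2 (COX-2) was the most abundant of the list, at 3100.0 and 4351 CPM, a ratio of 0.49.

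Sensors of microbes were closer. Of 13 genes 2 were at least 2-fold higher, the lectin receptor gene Clec4d at 1.06 and the formyl peptide receptor gene Fpr2 at 1.02, and 0 were lower by as much. Cd14, the co-receptor for lipopolysaccharide, was at 3532 and 5738 CPM, a ratio of 0.70 (0.66 to 0.74). Of 6 genes of the NADPH oxidase and 5 of the Fc gamma receptors 0 were 2-fold apart, with medians of -0.21 and -0.16. Fcgr1, which interferon-gamma induces, was just short of 2-fold, at -0.97 (-1.32 to -0.66), and past it, at -1.14, as a mean of CPM over cells.

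Apoe, an apolipoprotein that mature macrophages make in quantity, was at 794 CPM (772 to 816) in WT and 3125 CPM (3037 to 3216) in Ring1aKO, a log2 ratio of 1.98 (1.92 to 2.03). It was found in 50.2% (46.4 to 54.1) and 82.9% (76.8 to 87.9) of thinned monocytes and in 68.8% and 87.9% before thinning. Thinned alike, Apoe was found in 35.5% and 53.6% of B cells, 7.33% and 8.77% of neutrophils and 6.76% and 5.17% of dendritic cells. Cell-free barcodes held Apoe at 563 and 861 CPM, also higher in Ring1aKO. With 5% of UMIs subtracted as their profile the ratio in the monocytes was 2.01. The part of cell-free Apoe in the monocyte values was not tested beyond this subtraction. Cd63, a lysosomal membrane protein, was at 20.5 and 61.2 CPM and was the other of 8 macrophage genes at least 2-fold higher. The median of the 8 was 0.05, with 3 below 0, and after thinning -0.39. Selenop, a selenium transport protein and the second most abundant of them in WT, stood at -0.34 (-0.55 to -0.14). Mrc1, the mannose receptor of resident macrophages, was at 26.3 and 26.3 CPM. Folr2, Lyve1 and Timd4, which also mark resident macrophages, had 0 UMIs in both libraries.

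Genes of other cell types were read in the same cells. The 14 neutrophil genes summed to 1296 and 1253 CPM, led by Acod1 in WT and Il1r2 in Ring1aKO, with 1 and 2 of them at 0 and Ly6g at 0 in both. The 10 dendritic cell genes summed to 94.5 and 179.6 CPM, with 2 and 4 at 0. They were led by Ccr7, the receptor that guides cells to lymph nodes, which was at 37.1 and 151 CPM from 69 of 673 and 40 of 198 monocytes. Of the 3 dendritic cell genes with at least 100 UMIs, Ccr7 was at least 2-fold higher, at 2.03. The other 2 were at least 2-fold lower, among them Clec10a at -1.36, and the median was -1.18. The 8 B and plasma cell genes summed to 4394 and 5459 CPM, led by Igkc, with 0 at 0. Igha was at 2.84% and 4.14% of its level in cell-free barcodes. The part of these transcripts in the other results was not tested beyond leaving out cells with a UMI of another lineage and subtracting 5% of UMIs as the cell-free profile.

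MHC class II varied widely among the monocytes. H2-Aa, H2-Ab1, H2-Eb1 and Cd74 together took between 0% and 6.47% of the UMIs of a WT monocyte, with a median of 0.329%, and between 0% and 7.47% of a Ring1aKO monocyte, with a median of 0.0862%. A share of at least 0.1% was held by 62.9% (59.1 to 66.5) and 44.4% (37.4 to 51.7) of monocytes, and a share of at least 1% by 32.1% (28.6 to 35.8) and 23.2% (17.5 to 29.7). Cells near the limits of the rule were high in it: the 49 and 33 monocytes with 5 to 9 UMIs of Lyz2 held H2-Aa at 3497 and 4572 CPM, and the 7 and 3 with 3 or 4 UMIs of the monocyte genes at 5309.9 and 6299 CPM. Summed over all the monocytes, H2-Aa was at 2066 and 1639 CPM, a log2 ratio of -0.33 (-0.40 to -0.27). Ciita was at 45.4 and 9.21 CPM, a ratio of -2.21 (-3.19 to -1.53), and H2-DMa, which helps load peptides, at 393 and 184 CPM, a ratio of -1.09 (-1.28 to -0.91). Of 7 genes of the list 7 were below 0 and these 2 at least 2-fold lower, but H2-DMa stood at -0.91 after thinning, and Ciita at -3.07 without the 5% of cells with the most genes. H2-Aa, H2-Ab1, H2-Eb1 and H2-DMa lie 94.9 to 281 kb from Ring1, where genotype and neighbouring DNA cannot be told apart.

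To see what went with MHC class II, the monocytes of each library were split into tertiles by this share. The split used the 4 genes, so their own levels are no finding, and the comparison of tertiles is a description. Among genes at 100 CPM or more in both libraries, those lowest in the highest tertile relative to the lowest were Cxcl3, Slpi, Vcan, S100a8, Chil3, Dmkn, Mgst1, Mmp19, Vim and Anxa2. Vcan went from 588 CPM in the lowest to 130.2 CPM in the highest WT tertile and from 493 CPM in the lowest to 125 CPM in the highest Ring1aKO tertile. Chil3 went from 1783 CPM in the lowest to 504 CPM in the highest tertile in WT, and from 4495 CPM in the lowest to 883 CPM in the highest tertile in Ring1aKO. At the same level, and beside the 4 genes, those highest in the highest tertile were H2-DMb1, H2-DMa, Rgs1, H2-Q7, Tmem176b, Aif1, Cxcl16, Tmem176a, Tspan13 and Tmem123. Aif1 (IBA1), an actin-binding protein of macrophages, went from 99.5 CPM in the lowest to 573 CPM in the highest tertile in WT, and from 122 CPM in the lowest to 367 CPM in the highest tertile in Ring1aKO. Below that level in 1 or both libraries, Ciita went from 7.73 CPM in the lowest to 94.1 CPM in the highest tertile in WT. Ccr7, from the list of dendritic cell genes, went from 10.9 CPM in the lowest to 81.1 CPM in the highest tertile in WT, and from 53.8 CPM in the lowest to 371 CPM in the highest tertile in Ring1aKO. The 3 genes of that list with at least 100 UMIs summed to 31.8 and 154 CPM in the lowest and highest WT tertiles, and to 57.3 and 408 CPM in those of Ring1aKO. The part of dendritic cell transcripts in the tertiles was not tested. Not all monocyte genes went the way of Vcan, since the log2 ratio of the highest over the lowest tertile was 0.51 in WT and 0.17 in Ring1aKO for Plac8, and 0.50 and 0.49 for Csf1r.

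The tertiles held different ranges of MHC class II in the libraries, and the middle one had a median share of 0.330% in WT and 0.0862% in Ring1aKO. The interferon-gamma response list was below 0 in each, with medians of -2.24, -2.61 and -2.71 from the lowest to the highest tertile. Gbp2 was at 438, 959.8 and 1318 CPM over the WT tertiles and at 29.5, 32.9 and 53.3 CPM over the Ring1aKO tertiles. Irf1 was at 400.4, 409 and 373 CPM in WT and at 95.5, 89.9 and 96.3 CPM in Ring1aKO. Every Ring1aKO tertile thus stood below the lowest WT tertile for both genes. Ly6c2 had ratios of -1.77, -2.12 and -2.45, and Apoe of 2.16, 1.54 and 2.15, so neither changed direction between tertiles.

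**Figure D4:**
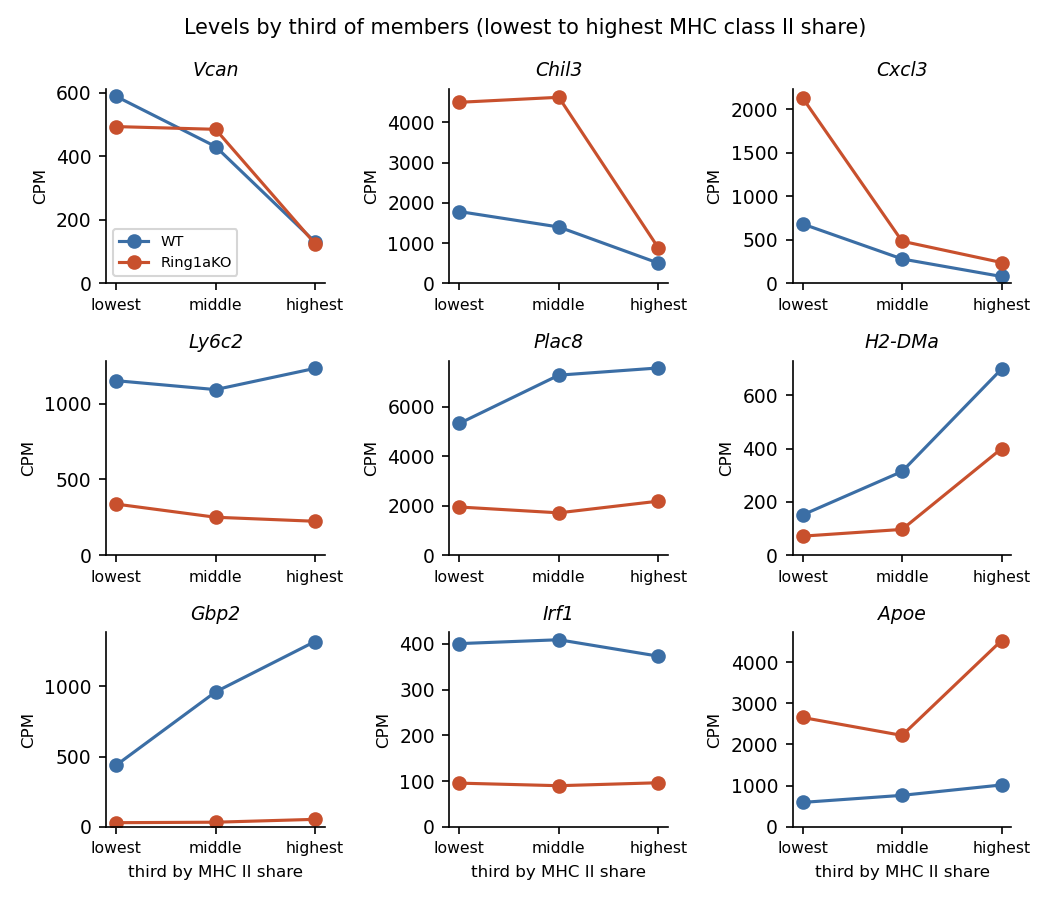
Levels in CPM, each panel with its own axis from 0, in tertiles of the monocytes by share of MHC class II UMIs, for WT (blue) and Ring1aKO (orange). Vcan, Chil3 and Cxcl3 are lower and H2-DMa is higher in the highest tertile of both libraries, while Ly6c2, Plac8, Gbp2 and Irf1 are lower in Ring1aKO in every tertile.

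Levels can be carried by few or many cells. Il1b was found in 667 of 673 and 197 of 198 monocytes, and the 68 WT and 20 Ring1aKO cells with the most held 25.9% and 26.8% of its UMIs. For Plac8 the same numbers of cells held 23.6% and 38.3%, and the median monocyte had 55 and 9 UMIs. Cxcl1 was found in 105 of 673 and 96 of 198 monocytes, and these top cells held 97.2% and 54.4% of its UMIs. Cxcl1 was thus spread over a larger share of the monocytes in Ring1aKO. Areg was found in 8.02% and 15.2% of monocytes before thinning.

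Without regard to lists, the lowest ratios among genes at 100 CPM or more in either library included those of Cxcl9, Gbp2, Gbp4, Irgm1, Ly6a, Calhm6, Gbp7, Ifi47 and Tap1. Ly6a (Sca-1), a surface protein that interferons induce, was at 328 and 28.9 CPM, a ratio of -3.47 (-3.97 to -3.07) that was -4.83 with 5% of UMIs subtracted as the cell-free profile. Calhm6, of a family of ion channels, was at 182 and 16.4 CPM, a ratio of -3.41 (-4.10 to -2.90). The highest were those of Gm42031, Areg, Cxcl1, Il10, Ccr7, Apoe, Serpinb2, Mt1, Ms4a8a and Lcn2. Gm42031, annotated as a lincRNA on chromosome 8 from 85125872 to 85132289 (GRCm38), had 50 and 220 UMIs, or 7.96 and 145 CPM, a ratio of 4.16 (3.74 to 4.66). Mt1, a metallothionein, was at 231 and 811 CPM, a ratio of 1.81 (1.70 to 1.93). Genes of the interferon response thus made up most of the lowest ratios. The highest came from several lists and, for Gm42031, Mt1 and Ms4a8a, from outside the lists.

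The same genes were read in C1q-positive macrophages (234 and 169 cells), neutrophils (158 and 187) and Flt3-positive dendritic cells (210 and 175) of these libraries. Of genes with at least 100 UMIs in each class 3.54%, 6.58% and 3.96% were at least 2-fold lower there, and 1.67%, 2.24% and 0.519% at least 2-fold higher. The 10 genes lowest in the monocytes were at least 2-fold lower in 10 of 10 cases in macrophages, in 4 of the 4 with at least 100 UMIs in neutrophils and in 9 of 10 in dendritic cells. Of the interferon-gamma response list 19 of 24, 9 of 10 and 14 of 22 genes were at least 2-fold lower, with medians of -1.73, -2.29 and -1.90. Lower interferon-gamma genes were thus seen in all 4 classes. Differences between classes were not tested.

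Single genes show how the classes compared. Gbp2 had ratios of -4.54 in the monocytes, -3.91 in macrophages, -4.46 in neutrophils and -3.20 in dendritic cells. Cxcl9 stood at -5.66 (-6.74 to -4.97) in macrophages and -2.01 (-2.31 to -1.74) in dendritic cells, beside -7.48 in the monocytes. Ly6c2 was at 619 and 35.6 CPM in macrophages and 195 and 21.2 CPM in dendritic cells, but at 101 and 214 CPM in neutrophils. Ccr2 and Plac8 had ratios below 0 in each class, with ratios for Ccr2 of -1.45 (-1.70 to -1.22) in macrophages and -0.87 (-1.12 to -0.62) in dendritic cells, and for Plac8 from -2.51 to -0.78 in the other classes. In neutrophils Ccr2 had only 19 and 3 UMIs, a ratio of -2.66 (-5.41 to -1.24). Gm42031 stood at 4.16 in the monocytes, 4.56 in macrophages and 4.64 in dendritic cells, and with 0 and 26 UMIs was at least 6.83-fold higher in neutrophils.

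Of the 10 genes highest in the monocytes, 6 of the 7 with at least 100 UMIs in macrophages were at least 2-fold higher there, 1 of 4 in neutrophils and 3 of 6 in dendritic cells, where 1 was at least 2-fold lower. In macrophages Il10 was at 303 and 863 CPM, a ratio of 1.51 (1.37 to 1.66), and Cxcl1 at 549.6 and 2353 CPM, a ratio of 2.10. Chil3 was close in macrophages, at -0.19 (-0.40 to 0.02). Apoe stood at 1.98 in the monocytes, 1.28 in macrophages and -1.52 in dendritic cells. Il1b stood at 0.19 in the monocytes, -0.09 in macrophages, -0.72 in neutrophils and -0.27 in dendritic cells, short of 2-fold in each.

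**Figure D5:**
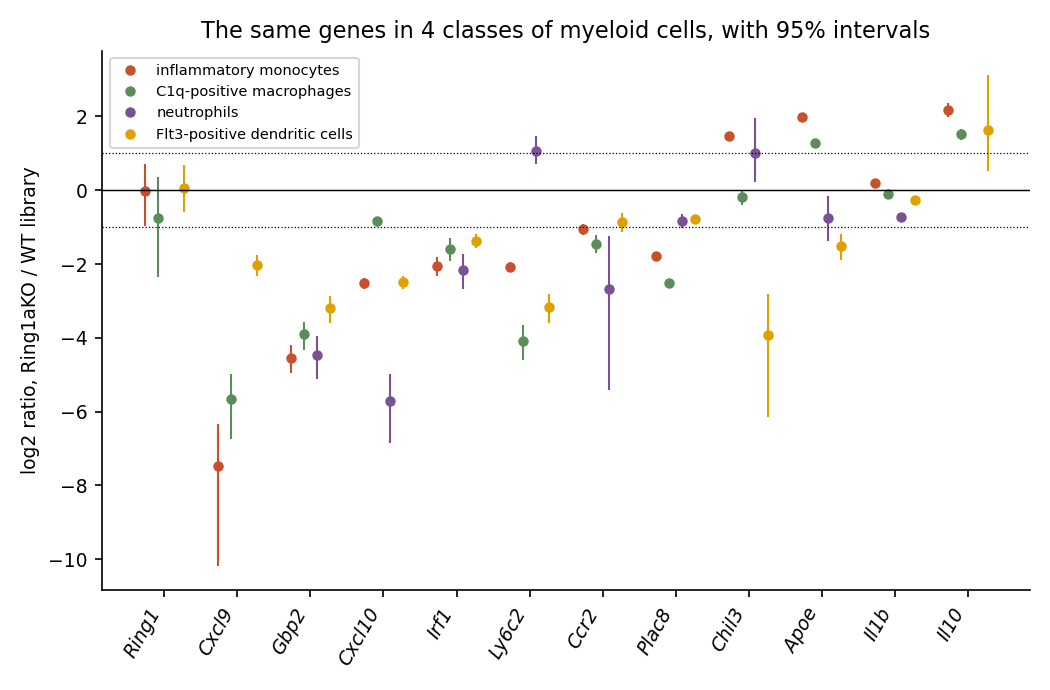
Log2 ratios of Ring1aKO over WT with exact 95% intervals for the same genes in the monocytes and in 3 other classes of myeloid cells; dotted lines mark 2-fold, and a point is drawn where a class had at least 20 UMIs and neither library was at 0. Gbp2 and Irf1 lie below -1 in all 4 classes, and Ly6c2 and Apoe lie on both sides of 0.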

How the data were processed

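The authors deposited UMI counts of all barcodes, neither filtered nor normalized, over 32228 genes, with 74414511 UMIs in WT and 81862096 UMIs in Ring1aKO. The file header names Cell Ranger 4, the submitters' processing notes name Cell Ranger 6.0.2, Seurat and mm39, and the study's methods name another version and mm10. Gene IDs were matched to GENCODE vM21 on GRCm38 (32150 of 32228), which gave the gene coordinates. Promoters were from RefSeq.

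For each class and library, counts were added up and scaled to CPM with Python 3.11.15, numpy 2.4.6, scipy 1.17.1 and pandas 2.3.3. Intervals were exact (Poisson, Clopper-Pearson, or binomial conditional on both counts for ratios), except those of share ratios, which were approximate on the log scale. Barcodes under 100 UMIs gave the cell-free profile. Cells were not clustered, and no doublet caller was run. Ratios and intervals were tested on simulated data.

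Members and 25 lists (329 genes in the table) were chosen with earlier results of these data known. Genes named were list genes with at least 100 UMIs, rule genes, the 10 highest and 10 lowest ratios at 100 CPM or more in either library (without immunoglobulin, T-cell-receptor variable, Xist and Y-linked genes), the 15 leading genes over other cells at 200 CPM or more, and the 10 genes that differed most in each direction between tertiles (at 100 CPM or more in both libraries, a limit added after the rule was written). Ring1 and marker genes named for few or 0 UMIs were added. Some genes that met this rule are not reported here.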

Additional observations from a re-analysis of the deposited data

Results flagged for a closer look

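Among the genes of the lists and the rule, and not over all genes, 2 with at least 100 UMIs in both classes compared went opposite ways. For them the inflammatory monocytes went at least 2-fold one way and another class of the same libraries at least 2-fold the other way. Ly6c2 had a log2 ratio of -2.08 in the monocytes and 1.07 in neutrophils, where it had 78 and 209 UMIs in WT and Ring1aKO, or 101 and 214 CPM. After thinning to 2000 UMIs 14% and 26.3% of neutrophils held a UMI of it, and 25.9% and 47.6% before thinning. Apoe had a ratio of 1.98 in the monocytes and -1.52 in Flt3-positive dendritic cells, where it had 330 and 94 UMIs, or 93.2 and 32.2 CPM. The share of dendritic cells with an Apoe UMI did not follow that level, at 21.9% and 30.3% before thinning and 6.76% (3.75 to 11.1) and 5.17% (2.39 to 9.59) after it. Below 100 UMIs in the other class, the same held for Areg in neutrophils, with 34 and 3 UMIs and a ratio of -3.47 (-6.19 to -2.18), for Ccl2 in neutrophils, with 46 and 5 UMIs and a ratio of -3.31 (-5.23 to -2.22), and for Chil3, a gene of the rule, in dendritic cells, with 91 and 4 UMIs and a ratio of -3.92 (-6.14 to -2.82). The Areg UMIs came from 5 of 158 and 3 of 187 neutrophils, and the Chil3 UMIs from 13 of 210 and 4 of 175 dendritic cells. These 2 ratios thus rest on few cells. With 1 library per genotype the differences between classes were not tested.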

How the results depend on the processing

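No paired analysis was possible because 1 library stood for each genotype. Of 221 genes recomputed, which were the list genes and other genes named by the rule with at least 100 UMIs, 73 were at least 2-fold apart. Under 12 alternatives 73 of the 73 kept their direction and 63 stayed at least 2-fold apart. Beside Ccr2, Ccl2, Ccl7, Ccl9, Ccl24, Timp1, Xaf1 and H2-DMa, whose values stand with them above, the exceptions were G0s2, at 1.01 and 0.57 in cells with at least 2000 UMIs and 1000 genes, and Clec10a at -0.99 without cells holding a UMI of another lineage. With the cell-free profile subtracted Iigp1 stood at -6.03 and Serpina3g at -5.90. These values rest on the added UMI, since few or no Ring1aKO UMIs were left, and are no exact folds. S100a9 went from -0.39 to 0.99 with calgranulins below 2%, and stood at -2.27 with the cell-free profile subtracted. With that subtraction Igkc (0.32 before), Igha and Jchain all stood at 2.05. A gene with 0 UMIs in both libraries, such as Flt3, also stands at 2.05 through the added UMI, so no rise is read from this. The median of the interferon-gamma response list lay between -2.92 and -2.64 over 13 alternatives, that of the type I interferon list between -1.96 and -1.62, and that of all genes between -0.19 and -0.11. The monocyte share ratio moved from -2.16 to -1.49 without B and plasma cells. Counts follow depth: thinned to 2000 UMIs, 34 genes were at least 2-fold higher and 125 lower of 2300 counted, and with a minimum of 20 UMIs 283 and 754 of 8978.

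The MHC class II median, -0.42, was -0.55 with at least 5 UMIs of the monocyte genes, -0.49 with 0 UMIs of C1q, -0.62 without the 5% of cells with the most genes and -0.35 after thinning. The dendritic cell list, 3 genes with a median of -1.18, reversed to 0.37 without cells holding a UMI of another lineage and to 1.65 after thinning. The neutrophil list moved from 0.34 to 0.71 with 0 UMIs of C1q and to 0.99 with calgranulins below 2%, and effector enzymes from 0.49 to 0.40 without cells holding a UMI of another lineage. After thinning NADPH oxidase stood at -0.045, microbial sensing at 0.45 and polycomb at 0.26. Medians near 0 crossed it: polycomb (0.07) lay between -0.25 and 0.26, nonclassical monocyte genes (-0.24) between -0.29 and 0.04, mature macrophage genes (0.05) between -0.39 and 0.09, and immediate-early and heat shock genes between -0.06 and 0.07. That of T, NK and ILC genes lay between -0.56 and 1.21. With a minimum of 20 UMIs chemokines stood at 0.69, B and plasma cell genes at 0.48 and T, NK and ILC genes at 1.21. The causes of these moves were not tested. Depth limits the ratios of genes near 100 UMIs, of which few come from the 198 Ring1aKO cells.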

Other observations

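Several lists had few or no genes 2-fold apart in the inflammatory monocytes. In the list of hypoxia and glycolysis 0 of 17 genes were 2-fold apart, with a median of 0.21. Gapdh, a glycolytic enzyme, was at 1184 and 1759 CPM in WT and Ring1aKO, and Ndrg1, which low oxygen induces, at 158 and 276 CPM. Hif1a, the oxygen-sensing factor itself, stood at 0.00 (-0.12 to 0.12). Of 15 immediate-early and heat shock genes, which respond to tissue handling among other stimuli, 1 was 2-fold apart, the stress-induced factor Atf3 at 402 and 172 CPM, a log2 ratio of -1.22 (-1.42 to -1.04). The chaperone genes Hspa1a and Dnajb1 stood at -0.89 and 0.80, on opposite sides of 0.

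Of 11 polycomb genes with at least 100 UMIs 0 were 2-fold apart, with a median of 0.07. Rnf2, the paralogue of Ring1 that also serves in polycomb repressive complex 1, was at 18.9 CPM (15.7 to 22.7) in WT and 26.3 CPM (18.8 to 35.8) in Ring1aKO, a ratio of 0.50 (-0.08 to 1.00). Ezh2, the histone methyltransferase of complex 2, was at 19.3 and 19.7 CPM. Of the cell cycle list 2 genes had enough UMIs, Mki67 at 0.18 (-0.21 to 0.53) and Pcna, a clamp of DNA replication, at 0.54 (0.32 to 0.75). Genes of eosinophils, basophils and mast cells summed to 3.98 and 9.87 CPM, led by Mcpt1, and those of non-immune cells to 33.6 and 60.5 CPM, with 0 genes of either list at 100 UMIs. Genes of T, NK and innate lymphoid cells summed to 46.3 and 57.2 CPM, led by Il7r at -0.48 (-1.10 to 0.03).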
